A study of Mus musculus with 2 samples.

Results

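The Meis, Pbx and Pknox genes encode homeodomain proteins of the TALE class, which act as DNA-binding cofactors of the Hox proteins. The 8 genes Meis1, Meis2, Meis3, Pbx2, Pbx3, Pbx4, Pknox1 and Pknox2 were chosen by name from the 21631 protein-coding records of a mouse RefSeq gene table (GRCm38.p6, the assembly that mm10 names), and each was set against the chromatin loops called around it. Loops were counted for a gene if an anchor held an end of its record, if the loop enclosed the record, or if an anchor lay within 1 Mb of it. That rule took 38 of the 4982 loops of the list (0.763%), and no loop was counted for more than 1 of the genes.

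The loops came from Micro-C, a form of chromosome conformation capture that digests fixed chromatin with micrococcal nuclease and so resolves contacts finely. The cells were V6.5, a male mouse embryonic stem cell line grown on gelatin, of wild-type genotype per the labels. The 2 samples form 1 group, siControl, transfected with the siGLO control reagent at 50 nM and collected after 48 hours. They share 1 loop list with no values per sample, no second condition was analysed here, and the read depth is unknown. The spread between replicates could therefore not be measured, and no difference below was tested. The list holds no expression values, so neither the identity of the cells nor the activity of the 8 genes was checked against markers.

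TALE proteins carry a homeodomain with an extra loop of amino acids. Pbx proteins bind DNA together with Hox proteins, and Meis and Pknox (Prep) proteins bind Pbx, keep it in the nucleus and join these complexes. The genes are known mostly for organ patterning, blood formation and leukaemia.

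The start sites of Meis1 and Meis2 lay in loop anchors. For this reason the 250 bases before each start site are shown first, 5′ to 3′ on the strand of the gene, with CG dinucleotides in capitals. The sequences are from RefSeq, build GRCm38.p6. They lie at chr11:19018970-19019219 on the minus strand (Meis1) and chr2:116064620-116064869 on the minus strand (Meis2). Both stretches lie inside the gene records, whose high ends are at 19019651 (Meis1) and 116067537 (Meis2).
Meis1: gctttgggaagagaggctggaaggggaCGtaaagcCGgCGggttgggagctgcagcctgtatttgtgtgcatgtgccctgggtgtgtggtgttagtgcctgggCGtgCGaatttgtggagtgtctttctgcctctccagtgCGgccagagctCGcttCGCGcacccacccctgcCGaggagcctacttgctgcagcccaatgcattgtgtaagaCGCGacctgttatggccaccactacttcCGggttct
Meis2: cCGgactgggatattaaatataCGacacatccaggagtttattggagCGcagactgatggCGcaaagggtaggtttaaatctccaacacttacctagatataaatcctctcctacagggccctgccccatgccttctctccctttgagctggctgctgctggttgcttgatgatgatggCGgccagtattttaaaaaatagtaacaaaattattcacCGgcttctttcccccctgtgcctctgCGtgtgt

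The promoter table held 5 of the 8 genes, namely Meis1, Meis2, Meis3, Pbx2 and Pbx4. Its windows run from 250 bases before to 50 after the start site. The Meis1 window held 15 CG dinucleotides, the Meis2 window 13, the Meis3 window 21, the Pbx4 window 19 and the Pbx2 window 29, against a median of 7 over all 32851 windows. These counts stood at percentiles 66.2, 62.9, 76.05, 72.7 and 87.7 of all windows in that order. The windows were also searched on both strands for 3 motifs. TGACAG, a site of Meis and Pknox proteins, and TGATNNAT, a site of Pbx with Hox proteins, were found in none of the 5 windows, against 19.2% and 8.85% of all windows. The third motif was a core of the site of CTCF, a protein found at many loop anchors, spelled CC, any 3 bases, AG, any 2 bases, GGC. It was found in 1 of the 5 windows, that of Pbx4, against 8.61% of all windows. The match is shown in capitals as a contrast, since no anchor held the Pbx4 start site (chr8:69832374-69832623, plus strand).
Pbx4: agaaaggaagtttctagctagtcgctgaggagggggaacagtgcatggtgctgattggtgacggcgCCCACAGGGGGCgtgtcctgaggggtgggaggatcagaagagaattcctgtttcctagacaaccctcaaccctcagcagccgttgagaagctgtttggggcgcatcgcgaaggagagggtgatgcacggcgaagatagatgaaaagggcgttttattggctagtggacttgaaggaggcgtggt
The match begins at base 67 of the 250. The nearest anchor to the Pbx4 record was 132 kb away.

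Meis1, a cofactor of Hoxa9 in blood stem cells and leukaemia, was the only member with an end of its record at an anchor. That is 1 of 8 members (12.5%), against 9.04% of all protein-coding genes, a share that 1 gene decides. Meis1 (chromosome 11, 18880428 to 19019651) lay alone, with its nearest protein-coding neighbours Etaa1 and Spred2 927 kb and 905 kb away. It had 2 loops. The first, of 5 kb pixels, ran from 18875001 to 18880000, ending 428 bases short of the low end of the record, to 19015001 to 19020000, which held the start site at 19018969. Meis1 is read from high to low coordinates, so this loop of 140 kb joined the start of the gene to a site just past its end.

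The second Meis1 loop, of 10 kb pixels, left from the adjoining interval at the end of the gene (18880001 to 18890000). It spanned 880 kb, passed over the gene except for the part inside its near anchor, and ended at 19760001 to 19770000. That is 740 kb beyond the start side of the record. As its near anchor held a gene end, the loop did not count as enclosing Meis1. No protein-coding gene lay wholly between its anchors and no gene record of any type overlapped the far anchor. The list has no header, and the meanings of its score and peak pixel columns were inferred. The peak score, taken as the loop caller's own measure of strength, was 6.72 for the 140 kb loop and 3.97 for the 880 kb loop. Among loops of the same pixel size these scores stood at percentiles 88.0 and 48.8, and the peak pixels of the contact map at 88.7 and 42.9. The short loop thus ranked high on either value and the long one near the middle.

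Meis2, which acts in limb, heart outflow and craniofacial development, showed a like arrangement. It lies on chromosome 2, 115861264 to 116067537, and is also read from high to low coordinates. No end of its record lay at an anchor, but the start site of the promoter table (116064619) did. A loop of 205 kb and 5 kb pixels joined that anchor, 116060001 to 116065000, to 115855001 to 115860000, which ended 1264 bases short of the low end of the record. The start-side anchor ended 2537 bases short of the high end of the record. As at Meis1, the loop ran from the start site of the promoter table to a site just past the end of the gene. Its peak score was 5.30 (percentile 63.2) and its peak pixel stood at percentile 84.03.

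A longer loop also left from the end of Meis2 and passed over the gene. It ran from 115850001 to 115860000, a 10 kb interval that contains the 5 kb anchor of the short loop, to 116560001 to 116570000. That is 492 kb beyond the start side of the record, in the 811 kb that separate Meis2 from its neighbour Tmco5. The loop spanned 710 kb and scored 4.73 (percentile 76.8), while its peak pixel stood at percentile 13.3. Here too no other protein-coding gene lay between the anchors and no gene record overlapped the far one.

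Meis2 also had 2 loops that left its start side in the direction of transcription and reached far past the end of the gene, which Meis1 had not. An anchor at 116070001 to 116080000, 2464 bases beyond the start side of the record, was joined to 115510001 to 115520000 over 560 kb and to 114850001 to 114860000 over 1220 kb. Their peak scores were 3.79 (percentile 40.5) and 4.23 (percentile 60.4). Both enclosed Meis2 and its neighbour BC052040. The shared anchor overlapped the long non-coding RNA genes G630016G05Rik and 2810405F15Rik, and the far anchors overlapped 3110099E03Rik and Gm13974. At Meis1, the anchor past the end of the gene overlapped 8430419K02Rik and the start anchor Gm16141. These non-coding genes were named after their positions had been seen.

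**Figure D1:**
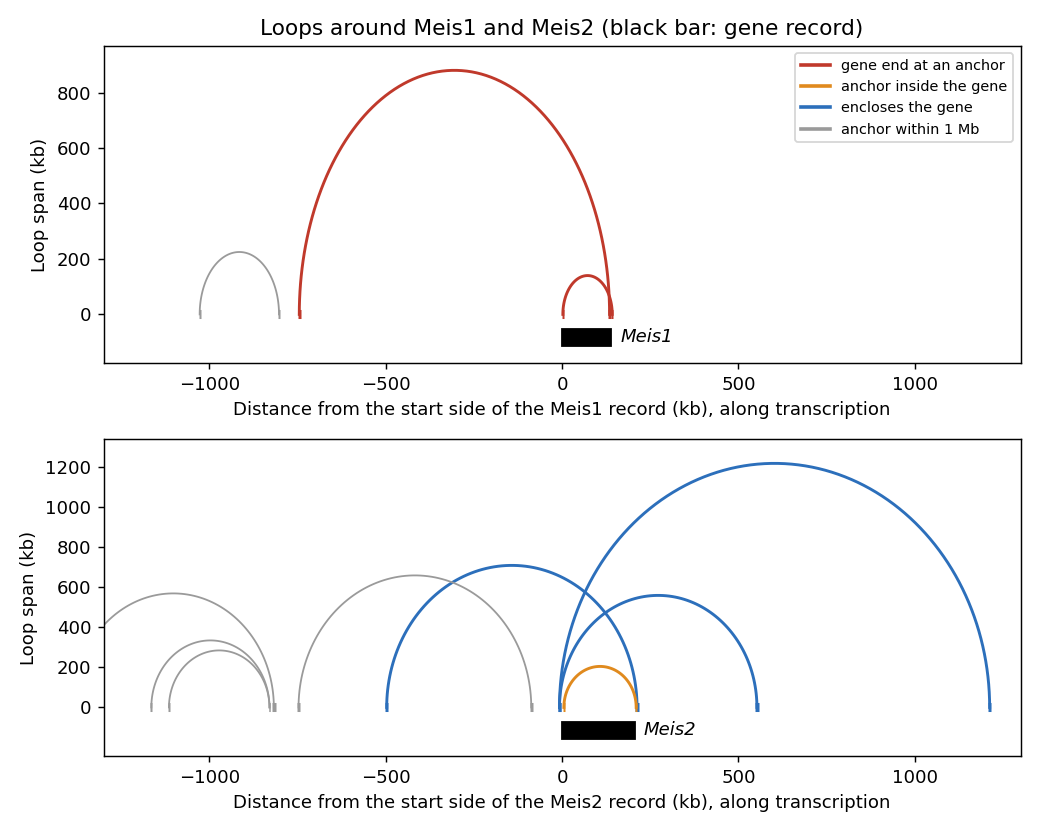
Loops around Meis1 and Meis2, with distance in kb from the start side of each record along the direction of transcription, and arc height equal to loop span in kb. Arcs are coloured by the relation of the loop to the gene, thick marks at 0 are the anchors and black bars the gene records. Each gene has a loop over its own length (140 kb and 205 kb) and a longer one (880 kb and 710 kb) from the same end that reaches past the start side.

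The neighbourhoods of these paralogues also held related genes. Spred2, an inhibitor of Ras signalling, is the neighbour of Meis1 on the start side, and lay wholly within a loop of 225 kb (19820001 to 19825000 and 20045001 to 20050000) with a peak score of 4.67. That loop was the third and last within 1 Mb of Meis1. Spred1, a gene of the same family and named after its position had been seen, lay 1054 kb beyond the start side of Meis2. It had an end at an anchor of a 285 kb loop (116895001 to 116900000 and 117180001 to 117185000, peak score 5.15) and lay within a 335 kb loop from the same first anchor (peak score 5.55). Both had their first anchor 827 kb from Meis2.

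Start sites at anchors were counted over the genes of the promoter table. Meis1 and Meis2 were 2 of the 5 members listed there, against 5.2% of the 17274 protein-coding genes with an entry. Loops joining a start site to within 5 kb of the other end of the same gene were found for the same 2 members, against 11 genes in all (0.0637%). Among listed genes of at least 100 kb they were found for 9 (0.483%). The rule for such loops was written after the loops of Meis1 and Meis2 had been seen, so the count of members describes what the rule was made from and carries no weight as evidence.

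With either end of the record counted, and no strand, a gene-length loop has its anchors within 5 kb of opposite ends of a gene. Meis1 and Meis2 had such loops, 2 of 8 members, against 25 of all protein-coding genes (0.116%). Short genes cannot be scored this way, since the shortest loops listed spanned 35 kb at 5 kb pixels, 70 kb at 10 kb pixels and 175 kb at 25 kb pixels. Meis3 and Pbx2, whose records are 12.5 kb and 5.14 kb long, could not have had one within this limit. Among genes of at least 100 kb, 21 of 2427 (0.865%) had one, and Meis1 and Meis2 were 2 of the 4 members of that length. Both are also among the 25 and the 21 genes. This rule and its limits, too, were set after the loops of Meis1 and Meis2 had been seen. The counts of members therefore carry no weight as evidence.

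Pknox2, a close relative of Pknox1, had a gene-length loop only with a wider limit of 15 kb. With that limit 3 members had one, against 97 genes in all (0.448%) and 78 of those of at least 100 kb (3.21%). A gene-length loop together with a longer loop was found for 10 genes (0.0462% of all and 0.412% of those of at least 100 kb). The longer loop had to begin within 10 kb of the same anchor and end over 100 kb past the other end of the gene. Besides Meis1 and Meis2 these were Abtb2, Cacng2, Grk5, Itgb5, Matn2, Ston2, Tmem108 and Tmem163, again by a rule written after the Meis loops had been seen.

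**Figure D2:**
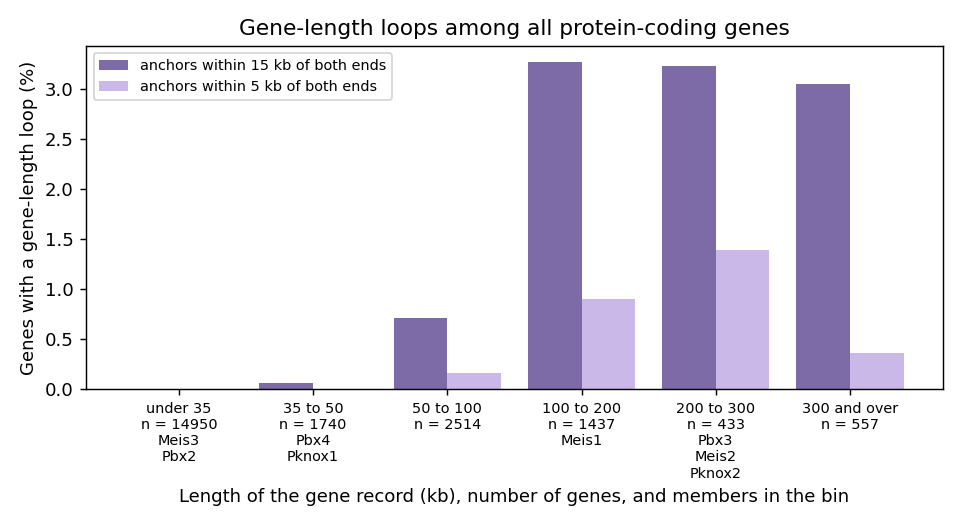
Share of protein-coding genes with a gene-length loop (vertical axis, percent), by length of the gene record (horizontal axis, kb), for anchors within 15 kb and within 5 kb of both ends. No gene under 35 kb had one, and the members in each bin are named under it, with Meis1 among 1437 genes of 100 to 200 kb (0.905% within 5 kb) and Meis2, Pbx3 and Pknox2 among 433 of 200 to 300 kb (1.39%).

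Pknox2 lies on chromosome 9, 36890979 to 37147342, and with 256 kb is the longest of the 8 records. Of its 9 loops within 1 Mb, 2 had an anchor inside the record. Both reached the same interval past the high end, 37160001 to 37170000, which lay 12.7 kb from the record. They began at 36900001 to 36910000, 9.02 kb inside the low end, and at 36970001 to 36980000, 79.02 kb inside it. Their spans were 260 kb and 190 kb, and their peak scores 3.56 (percentile 28.2) and 3.57 (percentile 28.9). By the regional score of the same caller they stood at percentiles 77.5 and 52.9, and by the peak pixel at 68.5 and 78.04, so their rank depended on the value used.

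Anchors inside or at the edge of the record were found for Meis1, Meis2 and Pknox2. These 3 of 8 members compare with 17.7% of all protein-coding genes, and all 3 are among the 4 members of at least 100 kb. Among all genes of that length the share was 53.6%. Gene ends at anchors were also more common in long genes, at 13.8%, with Meis1 as 1 of the 4 members of that length. The whole anchor lay inside the record for Meis2 and Pknox2 alone.

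Beyond the Pknox2 record, the loops formed separate groups on either side. On the low side, 4 loops had their near anchor 161 to 211 kb from the gene. The highest peak score of all 38 loops was among them, 8.48 (percentile 96.6), for a 250 kb loop from 36435001 to 36440000 to 36685001 to 36690000. A loop of 1470 kb from 35240001 to 35250000 followed with 5.87 (percentile 92.2), and one of 1150 kb from 35570001 to 35580000 with 5.32 (percentile 87.0). By the regional score the loops of 250, 1470 and 1150 kb stood at percentiles 98.0, 92.3 and 68.1. By the peak pixel they stood only at 34.3, 11.2 and 38.5. On the high side the remaining 3 loops began 308 kb or more from the gene. None of these 7 loops crossed Pknox2.

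Pknox1, which is needed in the mouse for survival of the early epiblast, was enclosed by 2 loops that shared an anchor. It lies on chromosome 17, 31564722 to 31607693. The first loop spanned 140 kb from 31520001 to 31530000, where an end of Ndufv3, a subunit of mitochondrial complex I, lay, to 31660001 to 31670000. It also enclosed the neighbour Cbs, an enzyme of cysteine synthesis, and U2af1, a splicing factor. The second spanned 320 kb from 31340001 to 31350000 to the same anchor and enclosed 5 other genes. Peak scores were 4.83 (percentile 78.7) and 4.72 (percentile 76.4). By the regional score the 140 kb loop stood at percentile 73.9 and the 320 kb loop at 48.3. By the peak pixel they stood at 83.5 and 54.3, so the 320 kb loop ranked high by the peak score alone.

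Further loops began close to the shared anchor of Pknox1 and ran away from the gene. One of 360 kb began at the adjoining interval 31670001 to 31680000, with an end of Cryaa, and ended at an anchor with ends of Hsf2bp and Rrp1b. Its peak score was 4.94 (percentile 80.9) and its peak pixel stood at percentile 94.7, the highest among the 38 loops. Another of 160 kb began at 31690001 to 31700000 and scored 3.03, the lowest of the 38. Pknox1 had 7 loops within 1 Mb in all.

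Pbx3, linked to motor and respiratory neurons in the mouse, was enclosed by a single loop of 25 kb pixels. The gene lies on chromosome 2, 34171457 to 34372045. The loop ran over 650 kb from 33975001 to 34000000 to 34625001 to 34650000, and its near edges lay 171 kb and 253 kb from the record. It enclosed the neighbour Mapkap1, a subunit of a growth-control kinase complex, as well, and had no protein-coding gene end within either anchor. The high end of Mapkap1, at 34624958, lay just short of the high anchor. The score of this loop was not high. Its peak score of 3.52 stood at percentile 32.5 of its pixel size and its peak pixel at percentile 76.6. With 201 kb Pbx3 is nearly as long as Meis2, but no anchor lay in its record. The other 4 loops within 1 Mb lay on the low side, and 1 of them had a peak score at percentile 0.791.

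**Figure D3:**
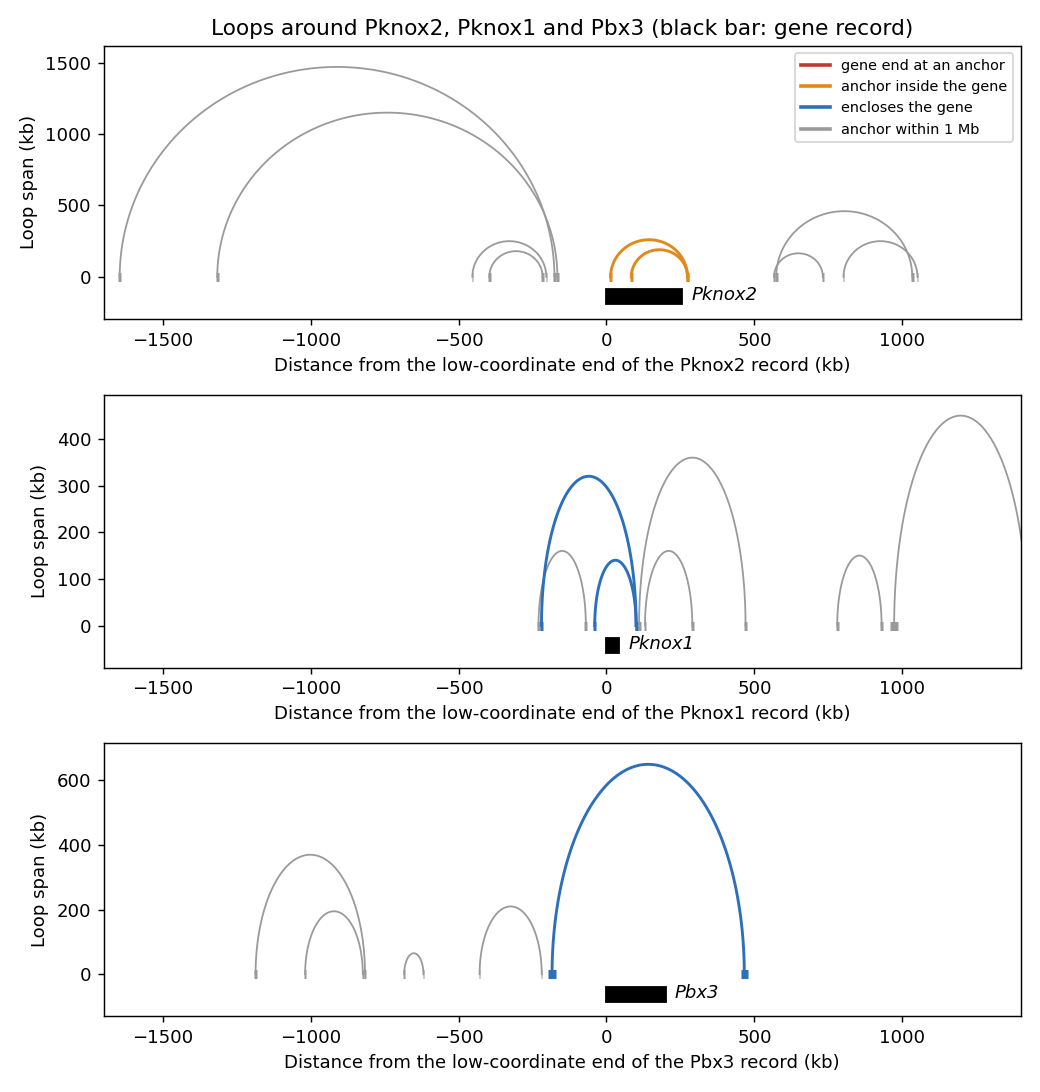
Loops around Pknox2, Pknox1 and Pbx3, with distance in kb from the low-coordinate end of each record and arc height equal to loop span in kb. Pknox2 has 2 loops from inside the gene to the same site past its high end, Pknox1 lies under loops of 140 kb and 320 kb, and Pbx3 under a single loop of 650 kb.

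Enclosure was thus found for Meis2 with 3 loops, Pknox1 with 2 and Pbx3 with 1. These 3 of 8 members compare with 32.6% of all protein-coding genes, a share near the background. Meis2, with 3 enclosing loops, stood at percentile 97.8 of all genes, Pknox1 at 92.3 and Pbx3 at 77.7. The 6 enclosing loops had a median span of 605 kb.

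Meis3, a cofactor in hindbrain patterning, had only distant loops. It lies on chromosome 7, 16174012 to 16186510, between Slc8a2 and Dhx34, which are 12.9 kb and 10.7 kb away. The nearest anchor was 743 kb away, a distance at percentile 91.9 of all genes. All 3 loops within 1 Mb lay on the high side. They spanned 70, 950 and 1850 kb, and the longest of them, with a peak score of 5.53 (percentile 89.04), was the longest of the 38. It enclosed 24 protein-coding genes, mostly of the Psg and Ceacam families of placental and adhesion glycoproteins.

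Pbx4, which in the mouse is found mainly in the testis, had 3 loops within 1 Mb, all on the low side and none across the gene. The record runs from 69832476 to 69872292 on chromosome 8, with Lpar2 and Cilp2 1.37 kb and 8.07 kb away. The nearest loop, of 350 kb and 25 kb pixels, ended 132 kb from the gene with a peak score of 3.67 (percentile 41.5). The loops of 90 kb and 150 kb ended 622 kb and 802 kb away, with scores of 6.20 and 3.75.

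Pbx2 was the only member with no loop by any part of the rule. It lies on chromosome 17, 34592259 to 34597400, in the gene-dense class III region of the major histocompatibility complex, 0.505 kb from Gpsm3 and 0.06 kb from Ager, a cell-surface receptor. The nearest anchor, 33475001 to 33500000, was 1092 kb away and belonged to a 450 kb loop with a peak score of 3.11 (percentile 11.8). Of all protein-coding genes 5.95% had no anchor within 1 Mb and 5.92% had neither such an anchor nor an enclosing loop. At least 1 anchor within 1 Mb was found for 7 of 8 members, against 94.1% of all genes. The loop nearest to the limit on the inside was the 950 kb loop of Meis3, at 953 kb. On the outside it was a 580 kb loop at 1011 kb from Meis2, with a peak score of 3.13.

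The number of loops within 1 Mb was 9 for Pknox2, 8 for Meis2, 7 for Pknox1, 5 for Pbx3, 3 each for Meis1, Meis3 and Pbx4, and 0 for Pbx2. Their median was 4, against a median of 5 and quartiles of 3 and 7 over all protein-coding genes. Pknox2 and Meis2 stood at percentiles 86.07 and 79.4, above the upper quartile, and Pbx2 at 2.97. With no values per sample, the order of neighbouring counts has no measured error.

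Loop number did not rise with gene number across these genes. Within 1 Mb of Meis1 and of Meis2 lay 2 other protein-coding genes, a number at percentile 0.816 of all genes, yet they had 3 and 8 loops. Pbx2 had 116 such neighbours (percentile 99.8) and no loop, Pbx4 had 71 with 3 loops and Meis3 45 with 3 loops. These members had the most neighbours and few loops, while Pknox2 had 9 loops with 42 neighbours. Over all genes in 5 equal groups sorted by this number, the median count of loops within 1 Mb was 5, 6, 6, 5 and 4 from the sparsest to the densest. In the densest group, which holds Pbx2 and Pbx4, 5.87% of genes had no loop within 1 Mb. The 1 Mb was measured from the record, so long records such as Pknox2 (256 kb) took in more sequence than Pbx2 (5.14 kb).

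**Figure D4:**
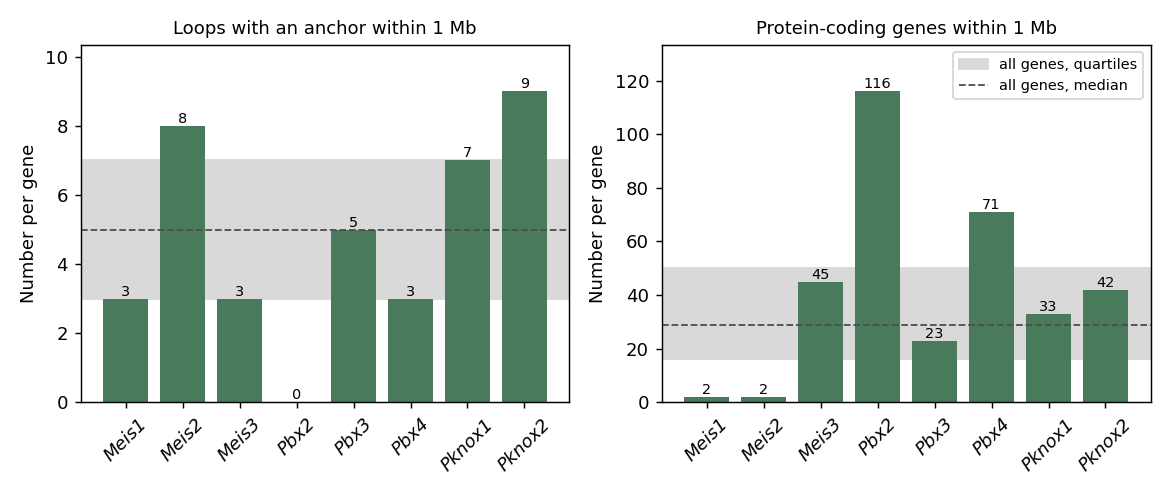
Loops with an anchor within 1 Mb (left) and other protein-coding genes within 1 Mb (right) of each of the 8 genes, as numbers per gene, with the quartiles (grey band) and median (dashed line) over all protein-coding genes. Loop counts run from 0 at Pbx2 to 9 at Pknox2, and gene counts from 2 at Meis1 and Meis2 to 116 at Pbx2.

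Over the 38 loops, the median span was 272.5 kb, against 325 kb for the whole list, and spans ran from 65 to 1850 kb. Loops of 5 kb pixels made up 31.6% of them, against 25.4% of the list, and loops of 25 kb pixels 7.89%, against 13.4%. Peak scores ran from 3.03 to 8.48, with a median of 4.66, against 4.16 for the list. Within their pixel size, 23 of the 38 loops lay above the median score, and the median percentile was 59.1. The 2 loops at a gene end, both of Meis1, and the 6 enclosing loops had median percentiles of 68.4 each, and the 3 loops with an anchor inside a record one of 28.9. By the regional score these medians were 75.7 for loops at a gene end, 51.05 for enclosing loops and 77.5 for loops with an anchor inside a record, so the order of the groups changed with the score.

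**Figure D5:**
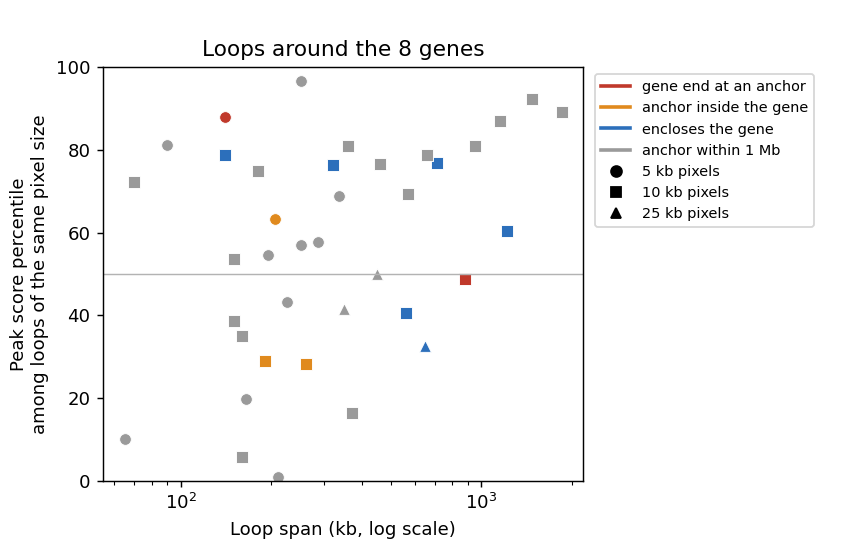
Peak score percentile among loops of the same pixel size (vertical axis) against loop span in kb (horizontal axis, log scale) for the 38 loops around the 8 genes. Colours give the relation of the loop to the gene and symbols the pixel size. The 140 kb loop of Meis1 stands at percentile 88.0 and the loops inside Pknox2 at 28.2 and 28.9.

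Other genes of the TALE class and partners of these proteins were counted in the same way. Of 9 other TALE genes (6 Irx genes, Tgif1, Tgif2 and Mkx) 5 had an end at an anchor (55.6%, against 9.04% of all protein-coding genes), namely Irx1, Irx2, Irx3, Irx4 and Irx5. Their records are short, with a median of 9.33 kb, against 91.1 kb for the 8 members, so most of them could not have had a gene-length loop. Among 42 homeodomain partners (39 Hox genes, En1, En2 and Pdx1), 11 had an end at an anchor (26.2%, against the same 9.04%). Genes of 1 cluster can share an anchor or a loop, so these Hox and Irx genes are not independent cases. For example, Hoxb6 ends at 96301569, Hoxb5 runs from 96303512 to 96306121 and the Hoxb3 record begins at 96307101. Each of the 3 had 1 loop at an end. The median length of the partners is 4.04 kb, so gene-length loops were not compared. The partners had a median of 10 loops within 1 Mb, against 4 for the 8 cofactor genes, but genes of 1 Hox cluster share most of these loops. For example, 9 Hoxd genes each had the same number, 11. The genes at anchors included Hoxd13 with 3 loops, Hoxd3 with 2 and Hoxa6, Hoxb3 and En2 with 1 each.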

How the data were processed

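Micro-C loops of 2 siControl samples were deposited by the authors as 1 list without header. The submitters' processing notes name build mm10 and Juicer 1.5.6. The caller of the loops, the thresholds and any pooling are not given in the sources used. Column meanings were inferred. The deposited peak score and regional score are the authors' own, the deposited fraction in column 9 was not used, and the deposited signal of the peak pixel has an unknown normalization. All were used only to rank loops.

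Positions were made 1-based with Python 3.11.15 and pandas 2.3.3. Span is the distance between anchor midpoints. Percentiles are over loops of the same pixel size or over all protein-coding genes of chromosomes 1 to 19 and X. Protein-coding genes with an end at an anchor of a loop at a member's end or of its shortest enclosing loop were named, with nearest neighbours. The classification was tested on simulated loops with 5 kb anchors and recovered 600 of 600 planted relations. These were planted by the same definitions, so the result checks the code alone. Larger anchors, start sites and the rule for a longer loop were not covered. The members and lists were chosen with earlier results of these data known. No test was run, since genes and loops are not replicates.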

Additional observations from a re-analysis of the deposited data

How the results depend on the processing

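No paired analysis was possible because both samples share 1 loop list, and for that reason no sample could be left out. The count of 1 member with a gene end at an anchor was 2 with anchors widened by 5 kb (Meis2 added), 3 with anchors widened by 25 kb and 2 with the start sites of the promoter table alone. The 2 loops at such ends became 6 with anchors widened by 5 kb and 1 when loops at or below the median score for their pixel size were left out. The 38 loops within 1 Mb became 23 in a 500 kb window, 70 in a 2 Mb window and 23 with loops above the median score. The median percentile of the loops at Meis1's ends, 68.4, was 75.7 by the regional score, and that of the loops with an anchor inside a record was 77.5 in place of 28.9. The cause was not tested. The enclosing loop of Pbx3 was lost without 25 kb pixels and among loops above the median score, and Pbx2 had 3 loops in a 2 Mb window. Members with a gene-length loop numbered 2 or 3 under the limits tried, all chosen after seeing the data. Depth is unknown, so a missing loop cannot be told from one that was not detectable.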
